A study of Mus musculus with 6 samples.

Results

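The transcripts described here belong to genes that bring fatty acids into muscle, bind them inside the cell or release them from stored fat. They are Lpl, Vldlr, Cd36, Fabp3, Fabp4 and Lipe, chosen by gene symbol from the platform annotation, a rule that uses no measured value. Each has 1 probe, so the set covers 6 of the 223 probes of a focused array, or 6 of its 203 named genes. The RNA was total RNA of soleus, a slow postural muscle of the lower hindlimb, from C57Bl/6 mice marked wt whose hindlimbs had been suspended and so carried no weight. There were 6 arrays, each of 3 microgram of RNA prepared from cryosections, and all of them belonged to this 1 group. No loaded control was analysed here, so every value is a level in suspended muscle and none is an effect of suspension. The sources used here give neither the age and sex of the mice nor the length of suspension. They also leave unsaid whether the arrays are of separate animals, so part of the spread may be technical.

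Working muscle takes much of its fatty acid from the blood. Lipoprotein lipase, made largely by muscle fibres and fat cells and displayed on the capillary wall, frees fatty acids from circulating triglyceride, and the VLDL receptor binds the particles that carry it. CD36 moves long-chain fatty acids across the membranes of capillary endothelium and muscle fibres. Inside the cell the fatty acid binding proteins carry them, FABP3 in heart and skeletal muscle and FABP4 in fat cells and capillary endothelium. Hormone-sensitive lipase, encoded by Lipe, breaks down stored glycerides.

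The arrays differed from each other as wholes. Replicate 1 had a sum of intensities of 37.5, against 15.3 to 18.5 on the other 5 arrays, and its correlations with them over the measured probes ran from 0.86 to 0.91, against 0.957 to 0.977 among the others. Results are therefore given with and without it where it bears on them. Fibre markers were present on every array: the slow myosin heavy chain Myh7 had deposited intensities of 0.555 to 2.13 and myoglobin (Mb) of 0.662 to 1.44. The summed intensity of the 6 fibre markers probed was 6.61 on replicate 1 and 2.29 to 3.01 on the others. The summed intensity of the 6 vessel markers probed was 0.0698 to 0.0878. Nos3, the endothelial nitric oxide synthase, was at or below 0 on 2 of the 6 arrays. None of 7 fat cell markers and none of 5 blood markers listed was on the array. Of 11 immune markers, Il6 and Il1b were, each above 0 on 2 arrays. Fat cells in the sections were thus not tested for. In whole muscle, fewer cells of a type and less RNA per cell cannot be told apart.

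Transcripts for 5 of the 6 genes were measured on every array, and that for hormone-sensitive lipase was at the edge of detection. Measured means above 0 on all 6 arrays, which held for 171 of the 223 probes (76.7%). The same 5 genes also exceeded, on each array, the size of that array's most negative value, a gauge of background noise that 60.1% of the probes passed everywhere. Lpl, Vldlr, Cd36 and Fabp4 lay at least 20.5 times above that gauge on every array. Fabp3 lay between 5.77 and 11.6 times above it. Lipe reached it on 4 arrays. Brightness also depends on the probe itself, and no gene is ranked against another by level.

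**Figure D1:**
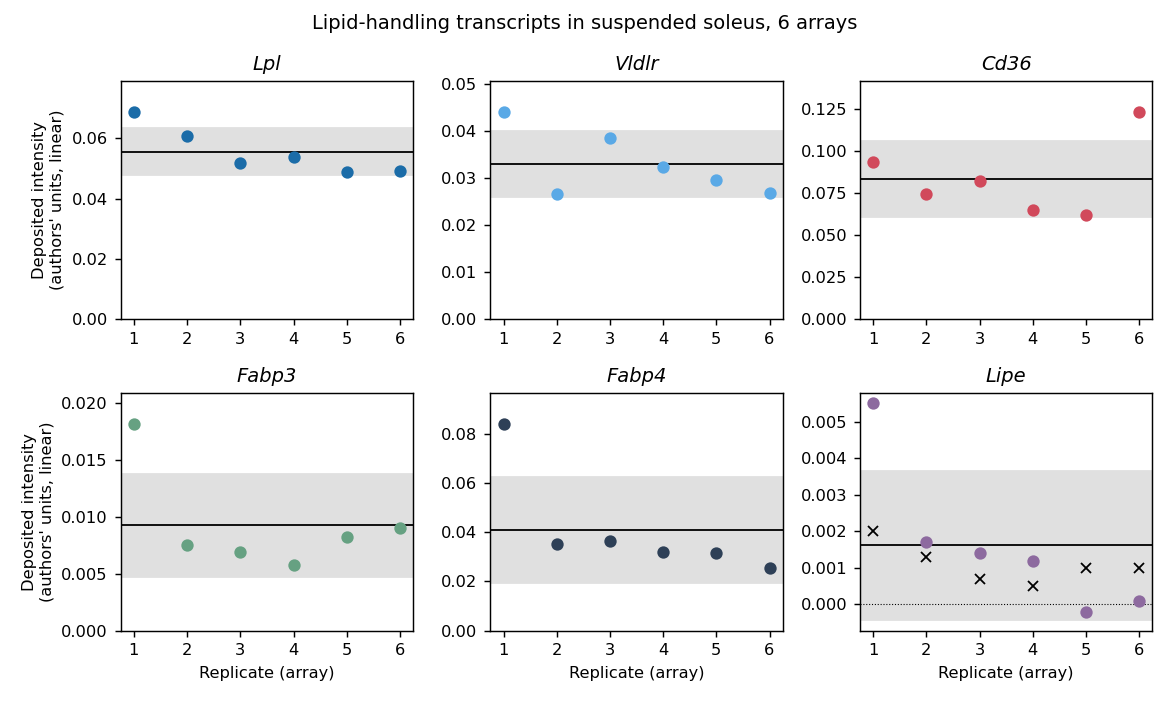
Deposited intensity (authors' linear units, vertical axis, a separate scale for each gene) against replicate for the 6 genes. Points are single arrays, the line is the mean and the grey band 1 SD on either side (n = 6); crosses in the Lipe panel give the size of each array's most negative value. Fabp3, Fabp4 and Lipe stand highest on replicate 1, Cd36 on replicate 6, and Lipe lies under the crosses on replicates 5 and 6.

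Lipoprotein lipase transcript varied little between arrays. The deposited intensities of Lpl were 0.0687, 0.0608, 0.0517, 0.0538, 0.0489 and 0.0491 on replicates 1 to 6. The highest array exceeded the lowest by 1.40-fold, and the mean was 0.0555 ± 0.0078 (SD, n = 6). Replicates 1 and 2 were the high arrays, and the other 4 lay close together. For comparison between arrays each value was put on the log2 scale and the array's median (over the 171 measured probes) subtracted from it, so that 0 is the array median and 1 unit a factor of 2. On this scale the level of Lpl ran from 2.46 to 3.02, with a mean of 2.69 ± 0.22 (SD, n = 6). Replicate 2 was then the highest array and replicate 4 the lowest. Of the 171 measured probes, 18 had a smaller SD, and 51 without replicate 1. These probes include dimmer ones nearer the noise gauge, and no comparison with probes of like brightness was made.

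The transcript of the VLDL receptor, which binds triglyceride-rich particles and is abundant in heart, muscle and fat, was about as even. Deposited intensities of Vldlr were 0.0440, 0.0266, 0.0386, 0.0324, 0.0296 and 0.0268 on replicates 1 to 6. Replicates 1 and 3 were high and replicates 2 and 6 low, with 1.65-fold between the extremes. The centred level had a mean of 1.93 ± 0.17 (SD, n = 6) and a range of 1.73 to 2.20, the highest being replicate 3. Under median centring 7 of the 171 measured probes had a smaller SD with all arrays, and 30 without replicate 1. Here too the probes were not matched for brightness. With equal array totals or with no centring the SD was 0.29 in each case.

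Cd36 transcript, for the fatty acid transporter of the membrane, was set apart by 1 array. Deposited intensities of Cd36 were 0.0936, 0.0747, 0.0820, 0.0652, 0.0619 and 0.1232 on replicates 1 to 6, a mean of 0.0834 ± 0.0226 (SD, n = 6). Replicate 6 was the highest although its sum of intensities, 15.3, was the lowest of all arrays. Replicate 6 had a centred level of 4.24, the others 2.73 to 3.32 with a mean of 3.06 ± 0.25 (SD, n = 5). Replicate 6 thus stood 1.19 above that mean on the log2 scale, or 2.28-fold, while the median of this difference over all measured probes was 0.10. It remained the highest array for Cd36 under every scaling run, by 0.72 above the mean of the others without centring, 1.18 with equal totals, 0.59 with quantile normalization, 0.99 with a lowess curve on level removed and 1.08 with a pseudocount. Less the median over all measured probes, this excess was 1.09 alike with median centring, no centring and equal totals. Replicate 6 was the highest array for 17.5% of the measured probes. The array was singled out after its value was seen, so no test is given. By Dixon's ratio, which sets the gap of the farthest array against the whole range, 15.8% of the measured probes had an outlying array on the centred scale, and none of the 5 genes did. Without it the SD of Cd36 was 0.25, against 0.53 with all arrays.

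The deposited intensities of both binding proteins were highest on the array that stood apart, and their spread rested largely on it. Their coefficients of variation were 52.8% for Fabp4 and 48.7% for Fabp3, against 27.1% for Cd36, 21.2% for Vldlr and 14.1% for Lpl. Without replicate 1 they were 13.4% for Fabp4, 16.4% for Fabp3, 30.3% for Cd36, 16.1% for Vldlr and 9.22% for Lpl (n = 5), so that Cd36 varied most. For Fabp4, the form of fat cells and endothelium, deposited intensities were 0.0840, 0.0353, 0.0365, 0.0318, 0.0315 and 0.0255 on replicates 1 to 6. Replicate 1 was more than 2-fold above each of the others, which lay between 0.0255 and 0.0365. The centred level was 2.87 on replicate 1 and 1.70 to 2.23 on the others, with a mean over all arrays of 2.14 ± 0.40 (SD, n = 6). Without replicate 1 it was 1.99 ± 0.20 (SD, n = 5). Replicate 1 stood above the mean of the others by 0.88 with median centring and 1.40 with none. This difference was 0.95 with quantile normalization or the lowess curve and 0.30 with equal totals. Its median over all measured probes was 0.13 with median centring, 0.65 with none and -0.45 with equal totals. Less that median, the difference of Fabp4 was 0.75 in each of these. They differ only by a constant per array, so that equality is by construction. With quantile normalization or the lowess curve the difference less the median was 0.89, and with the pseudocount 0.87. Fabp4 was highest on replicate 1 under all 6 scalings, as were 39.2% of the measured probes under median centring. The fibre markers summed highest on the same array, and their part in this value was not tested.

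For Fabp3, the form of heart and skeletal muscle, deposited intensities were 0.0182, 0.0075, 0.0069, 0.0058, 0.0082 and 0.0090 on replicates 1 to 6. The first array was 3.14-fold above the lowest, replicate 4. The centred level ran from -0.76 on replicate 4 to 0.66 on replicate 1, with 0.47 on replicate 6, and its mean was 0.02 ± 0.51 (SD, n = 6). Without replicate 1 the SD of the centred level was 0.45 (n = 5). Without centring the SD of Fabp3 fell from 0.57 to 0.24 when that array was left out. Under equal totals replicate 6, not replicate 1, was the highest array for Fabp3. Replicate 4 was the lowest under all 6 scalings.

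Lipe, for hormone-sensitive lipase, gave deposited intensities of 0.0055, 0.0017, 0.0014, 0.0012, -0.0002 and 0.0001 on replicates 1 to 6. It was at or below 0 on replicate 5 and within the noise gauge of 0.0010 on replicates 5 and 6. On replicate 1 it was 2.75 times the size of the most negative value, and on replicates 2 to 4 between 1.31 and 2.40 times. The transcript was thus weakly or not detected, and no level, SD or correlation on the log2 scale is given for it.

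**Figure D2:**
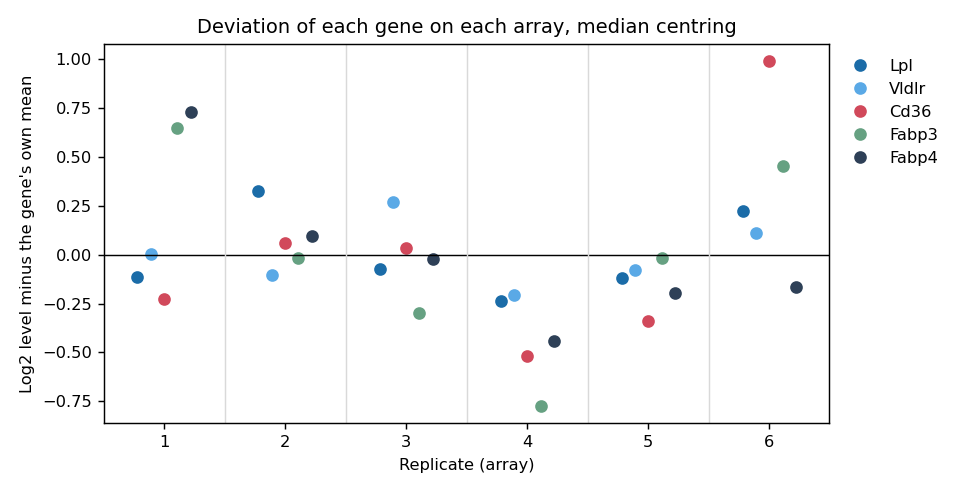
Log2 level after median centring minus the gene's own mean over the 6 arrays (vertical axis) for the 5 measured genes on each replicate (horizontal axis). Points are single arrays, shifted sideways for legibility; all 5 genes lie lowest on replicate 4, Cd36 lies highest on replicate 6, and Fabp3 and Fabp4 lie highest on replicate 1.

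All 5 measured genes had their lowest centred level on replicate 4, the array on which 12.3% of the measured probes were lowest. Their median difference from the mean of the other arrays there was -0.53 on the log2 scale, against -0.03 over all measured probes. None of 8 other genes of lipid metabolism on the array was lowest on it. With median centring only 1 of these 8 was above the mean of the other arrays there, beside 44.4% of all measured probes. The median difference of these 8 was -0.12. Their count depended on the scaling: 3 of 8 with quantile normalization, the lowess curve and the pseudocount, 5 of 8 without centring and 6 of 8 with equal totals. The shares of all measured probes were 50.3%, 43.3%, 40.9%, 71.3% and 81.9% in that order. The lowest place of the 5 genes on replicate 4 depended on the scaling. It held for 5 of 5 genes with the lowess curve and with a pseudocount, but for 1 of 5, Fabp3, without centring, with equal totals and with quantile normalization. Replicate 4 had the highest array median among replicates 2 to 6, at 0.0098 over the measured probes against 0.0065 to 0.0084. The lowess, pseudocount and quantile settings bring array medians to a common value too, as median centring does. The part of the array median in the low levels was not tested. The deposited intensities of Lpl and Cd36 were lowest on replicate 5, that of Fabp4 on replicate 6 and that of Vldlr on replicate 2.

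The share of the 5 genes with a small spread was near that of all measured probes. Under median centring 3 of them, Lpl, Vldlr and Fabp4, had an SD below 0.5, beside 52% of all measured probes. Their median SD was 0.40, against 0.48 over all 171 measured probes. Without replicate 1 it was 4 of 5 genes beside 76% of probes, and the medians were 0.24 and 0.34. Lpl and Vldlr lay under the median SD of all measured probes, which were not matched for brightness, in all 6 scalings. Cd36, Fabp3 and Fabp4 lay above or below it depending on the scaling.

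**Figure D3:**
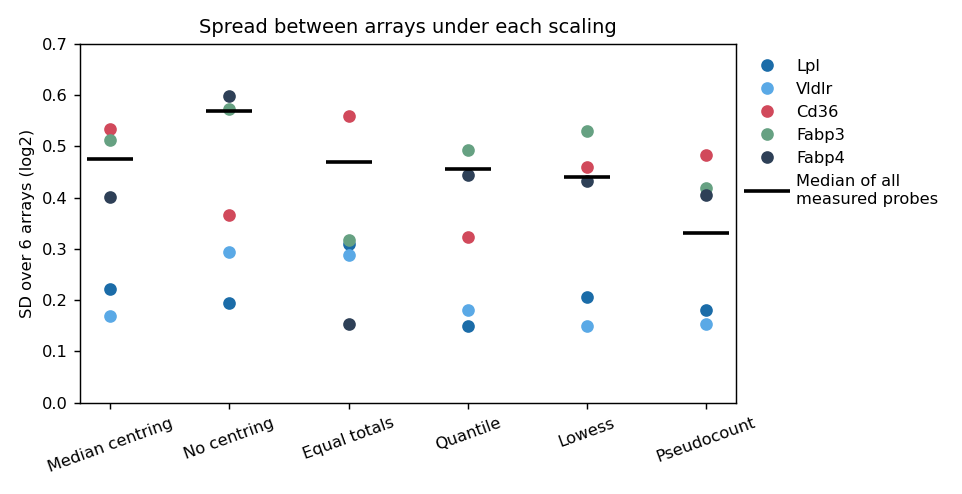
SD over the 6 arrays of the log2 level (vertical axis) of the 5 measured genes under 6 scalings (horizontal axis); the black bar is the median SD of the 171 measured probes. Lpl and Vldlr lie under the bar throughout, at 0.31 or less, while Fabp4 moves from 0.15 with equal totals to 0.60 without centring.

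The question whether the steps of lipid handling varied together between arrays was put to all 10 pairs of the 5 measured genes, and no pair passed the test. Pearson's r over the 6 arrays was tested with all 720 pairings of the arrays (exact permutation, two-sided), with Benjamini-Hochberg adjustment over the 10 pairs. The adjusted p-values by this exact test were 0.51 or more, and 0 pairs had an unadjusted p under 0.05. For Spearman's rho they were 0.17 or more, and 1 pair, Cd36 with Lpl, had an unadjusted exact p under 0.05. The smallest exact p that 6 arrays without tied levels can give is 0.0014 for r and 0.0028 for rho. The design could thus have reached the threshold for such pairs. Fabp3 had equal levels on replicates 2 and 5, which raises the smallest p of its pairs. A single rho of Fabp3 could not have passed alone after adjustment.

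Cd36 and Lpl, transporter and lipase of fatty acid uptake, had an r of 0.73 (exact p = 0.082, adjusted 0.51) and a rho of 0.94 (exact p = 0.017, adjusted 0.17). Both were low on replicates 4 and 5 and high on replicates 2 and 6. Without replicates 4 and 6, the farthest from the median of Cd36, r was 0.68 over 4 arrays. Over 5 arrays it lay between 0.64 and 0.99, the latter without replicate 2. It was 0.07 without centring and -0.04 with quantile normalization. The relation thus kept its sign with each array left out, but not in all scalings.

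Fabp3 and Fabp4, of one protein family, had an r of 0.73 (exact p = 0.10, adjusted 0.51) and a rho of 0.64 (exact p = 0.20, adjusted 0.51). Without replicates 1 and 4, the farthest from the median of Fabp3, r was -0.47 over 4 arrays, so the positive value rests on those arrays. With equal totals r was -0.01. Cd36 and Vldlr had an r of 0.54 (exact p = 0.27, adjusted 0.79), Cd36 and Fabp3 of 0.51 (exact p = 0.32, adjusted 0.79) and Fabp3 and Lpl of 0.40 (exact p = 0.40, adjusted 0.81). The corresponding rho were 0.54, 0.46 and 0.38 (exact p = 0.30, 0.39 and 0.48, adjusted 0.51 each). Without the 2 arrays farthest from the median of the first gene, r was 0.38, -0.49 and 0.53 over 4 arrays.

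Of the other 5 pairs, r was 0.31 for Fabp3 and Vldlr, 0.22 for Fabp4 and Vldlr, 0.16 for Lpl and Vldlr, and 0.09 for Fabp4 and Lpl. That of Cd36 and Fabp4, which were high on different arrays, was -0.03. By the exact permutation test these had p-values of 0.55, 0.67, 0.77, 0.87 and 0.96 in that order, and adjusted values of 0.92 for the first and 0.96 for the others. Their rho were 0.35, 0.37, 0.37, 0.60 and 0.49 (exact p = 0.51, 0.50, 0.50, 0.24 and 0.36, adjusted 0.51 each). Without the 2 farthest arrays r was -0.20, -0.06, 0.86, 0.50 and -0.10 over 4 arrays. The median r over the 10 pairs was 0.36, and 0.02 over the 14535 pairs of all measured probes. Without replicate 1 these medians were 0.52 and 0.01, and without replicate 4 they were -0.06 and 0.02. Quantile normalization gave -0.07 and 0.0046, equal totals -0.06 and 0.20, and no centring 0.52 and 0.37. All pairs share the arrays and their centring, and the order of these medians is a description without a test.

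**Figure D4:**
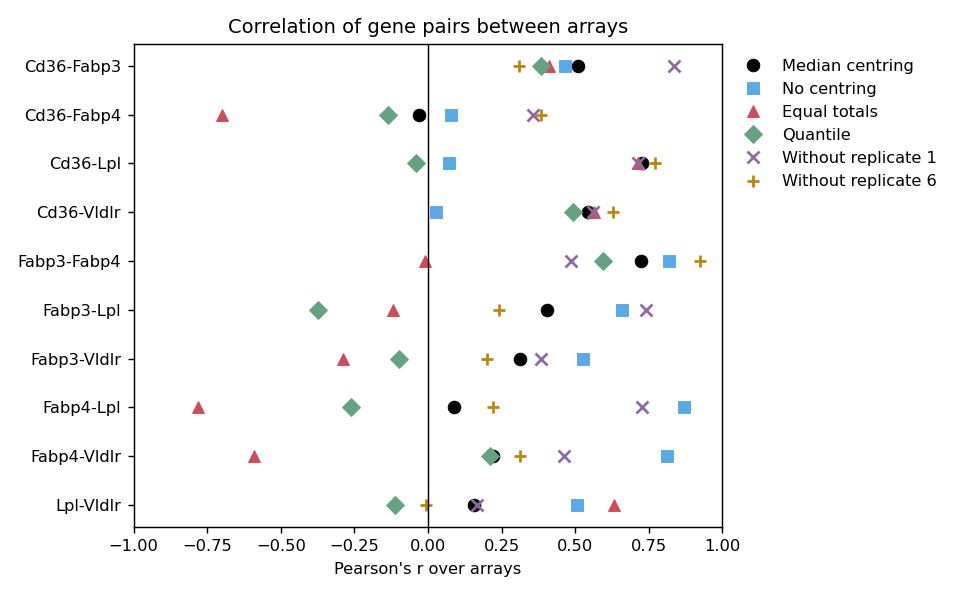
Pearson's r between arrays (horizontal axis) for the 10 pairs of measured genes (vertical axis) under 4 scalings with all 6 arrays and under median centring without replicate 1 or 6. Pairs such as Fabp4-Lpl run from -0.78 with equal totals to 0.87 without centring, and Cd36-Lpl from -0.04 to 0.77 among the settings drawn.

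Since muscle capillaries also express Cd36, Fabp4 and Vldlr, each gene was set against the mean deviation of the 5 measured vessel markers Pecam1, Cdh5, Kdr, Flt1 and Tek. No gene passed the test, and 0 had an unadjusted exact p under 0.05. The vessel score fell between -0.04 and 0.29 on 5 arrays, and replicate 1 had -0.63. Fabp4 had an r of -0.78 with it (exact permutation p = 0.11, adjusted over 5 genes 0.56) and a rho of -0.31 (exact p = 0.56, adjusted 0.84). Cd36 and Lpl had an r of 0.44 each (exact p = 0.31 and 0.42, adjusted 0.69), Fabp3 of -0.30 (exact p = 0.56, adjusted 0.69) and Vldlr of 0.06 (exact p = 0.90, adjusted 0.90). Their rho were 0.54, 0.43, 0.12 and 0.20 (exact p = 0.30, 0.42, 0.84 and 0.71, adjusted 0.84 each). Flt1 gives most of the low score, with a level of -2.15 on replicate 1 from a deposited intensity of 0.0026. The noise gauge of that array was 0.0020, so the low score rests mostly on a value near it.

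Replicate 1 decided several of these values. Without it r became 0.27 for Fabp4 and 0.95 for Fabp3 (exact permutation p adjusted over the 5 genes 0.74 and 0.083), and 0.69 for Cd36, 0.56 for Lpl and 0.20 for Vldlr. Because Fabp3 had equal levels on replicates 2 and 5, 0.083 is the smallest adjusted value it could reach alone. A lone result of Fabp3 could thus not have passed there. Without replicates 1 and 6, the 2 farthest from the median score, r was 0.42 for Fabp4, 0.90 for Fabp3, 0.21 for Cd36, 0.37 for Lpl and -0.05 for Vldlr over 4 arrays.

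The 3 genes whose pattern over the 6 arrays was most like each member were then read off among 159 other named and measured probes. These values are descriptions, because the highest of many correlations over 6 arrays is high by selection and all probes share the arrays. Cd36 was most like Cd34, a surface protein of capillary endothelium and progenitor cells (r = 0.96, rho = 0.89). The deposited intensities of Cd34 were 0.0195, 0.0131, 0.0154, 0.0158, 0.0124 and 0.0150 on replicates 1 to 6, and its centred level was highest on replicate 6, at 1.21 against 0.60 to 0.87. Without replicate 6 the r of Cd36 and Cd34 was 0.79, and without replicate 1 it was 0.96. Next came Kdr, an endothelial growth factor receptor (0.83), and Cpt1b, which admits fatty acids to mitochondria (0.82). Both were highest on replicate 6, and without it their r with Cd36 was 0.25 and -0.53.

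Fabp3 was most like Jun, an immediate early transcription factor (r = 0.92, rho = 0.99), Cox5b, a subunit of cytochrome c oxidase (0.85), and Ywhaz (0.83). These kept r at 0.86, 0.74 and 0.87 without replicate 1. Fabp4 was most like Thbs2, a matrix thrombospondin (0.96), Csf2ra, a cytokine receptor chain (0.95), and Timp3, a metalloproteinase inhibitor (0.93), all highest on replicate 1. Without replicate 1 these r were 0.82, 0.85 and 0.62. On replicates 2 to 6 the deposited values of Thbs2 were 0.0016 to 0.0041 and those of Csf2ra 0.0017 to 0.0030. Both were lowest on replicate 6, where the noise gauge was 0.0010. For Fabp4 22 of the 159 probes had an r above 0.8, for Fabp3 7, for Cd36 4, for Vldlr 1 and for Lpl 0. Without replicate 1 the counts were 8, 9, 22, 8 and 5 in the same order. The share of all probe pairs with such an r was not computed, so no count is read as many or few. A high r is reached more easily over 5 arrays than over 6, so the counts with and without replicate 1 are not comparable. Lpl was most like Arnt (0.80), the glucose transporter Slc2a2 (0.74) and Cd36 (0.73). Vldlr was most like the membrane metalloproteinase Mmp14 (0.85), the integrin subunit Itgav (0.75) and the angiopoietin receptor Tek (0.72). The deposited values of Itgav were 0.0010 to 0.0023, close to the noise gauge.

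Of 59 other genes of lipid uptake, storage and oxidation listed, 8 were on the array and all 8 were measured on every array. Their median SD was 0.21, or 0.17 without replicate 1. Dgat1, which completes triglyceride synthesis, had deposited intensities of 0.0021 to 0.0053 and an SD of 0.33. Hadh, an enzyme of beta-oxidation, had 0.0571 to 0.0756 and was, like Cd36, highest on replicate 6 after centring. The uncoupling protein gene Ucp3 had 0.0135 to 0.0320, and its centred level was highest on replicate 1, as were those of Fabp3 and Fabp4. Pparg, the nuclear receptor that drives fat cell genes including Fabp4, was high on replicate 2, with a centred level of 0.73, and its SD was 0.81. Fabp4 on that array was at 2.23, below replicate 1 (2.87) and above the other 4 arrays (1.70 to 2.12). This order depended on the centring: the deposited intensity of Fabp4 was 0.0353 on replicate 2 and 0.0365 on replicate 3. A relation of Fabp4 to Pparg was not tested. The remaining 4 were Cpt1b, Acadm, Acadl and Ppara, with SDs of 0.09, 0.42, 0.13 and 0.15.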

How the data were processed

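The deposited table gives 1 intensity per probe and array. The deposited intensities are linear and background-subtracted, as read from the values: 171 of 1338 lie at or below 0, the lowest being -0.0020. The sources used here do not name the scanner, the background method or the scaling, a depth does not exist for arrays, and the number of arrays limits the precision. Values have 4 decimals, which is coarse for Lipe.

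Probes were named through the platform annotation (205 with 1 symbol, 18 unnamed). Probes above 0 on all 6 arrays were put on the log2 scale without pseudocount and centred on each array's median. Alternatives were no centring, equal totals, quantile normalization, a lowess curve, a pseudocount of 0.0020, no filter, and leaving out each array with the same probes kept. Correlations used exact permutation with Benjamini-Hochberg adjustment at 0.05 and were tested on simulated data (Python 3.11.15, numpy 2.4.6, statsmodels 0.14.6). Genes named are the 6 members, the 3 most alike probes of each, the listed lipid genes and the markers. Members and lists were chosen with earlier results of these data known. P-values give how often random pairings of these arrays reach as strong a correlation, and speak for these arrays only. They do not measure the spread between arrays, which may be technical.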

Additional observations from a re-analysis of the deposited data

Results flagged for a closer look

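A result is given here when the highest or lowest of the 6 arrays lies farther from its neighbour, as a share of the whole range, than the critical value of Dixon's test, which by chance about 1 group in 20 passes. The ratio was taken on the deposited intensity for Lipe alone, and on log2 levels for the other 5 genes. It passed for Lipe, whose value of 0.0055 on replicate 1 lay above 0.0017, the next highest (ratio 0.667). On the deposited scale Fabp4 (0.0840, next 0.0365) and Fabp3 (0.0182, next 0.0090) also stood well above the others on replicate 1. Lipe is thus not set apart from them by this flag. Replicate 1 also had the highest sum of intensities, and whether that bears on the value of Lipe was not tested. None of the 5 measured genes reached the ratio on the centred log2 scale, where 15.8% of the measured probes did. Cd36 on replicate 6 came to 0.61 on that scale and passed with a pseudocount (0.63). Fabp4, highest on replicate 1, passed without centring (0.70), and Lpl, lowest on replicate 1, passed with equal totals (0.72).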

How the results depend on the processing

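No pair of genes and no gene with the vessel markers passed the adjusted threshold in any of the 12 alternatives, though with 1 array left out a single pair of genes could not have passed (smallest adjusted exact p 0.083). Nor could a lone result of Fabp3 with the vessel markers, where 1 array was left out and replicates 2 and 5, its tied arrays, were both kept. No paired analysis was possible because there is 1 group. The lowest adjusted exact permutation p of an alternative lay between 0.083 and 0.94 for the pairs and between 0.083 and 0.79 for the vessel markers. Signs of several correlations depended on the scaling. Without centring r was 0.080 for Cd36 and Fabp4, and -0.78, -0.64 and -0.30 for Cd36, Lpl and Vldlr with the vessel markers. With equal totals it was -0.0099 for Fabp3 and Fabp4, -0.12 for Fabp3 and Lpl, -0.29 for Fabp3 and Vldlr, -0.78 for Fabp4 and Lpl, and -0.59 for Fabp4 and Vldlr. With quantile normalization it was -0.041 for Cd36 and Lpl, -0.37 for Fabp3 and Lpl, -0.10 for Fabp3 and Vldlr, -0.26 for Fabp4 and Lpl, -0.11 for Lpl and Vldlr, and -0.041 for Vldlr with the vessel markers. The lowess curve gave -0.21 for Lpl and Vldlr and -0.30 for Vldlr with the vessel markers, and the pseudocount -0.039 and -0.20. With no filter and the pseudocount it was 0.0010 for Cd36 and Fabp4, and -0.0055 and -0.16 for Lpl and Vldlr with the vessel markers. With 1 array left out r ranged from -0.39 to 0.38 for Cd36 and Fabp4, -0.23 to 0.88 for Fabp3 and Vldlr, -0.27 to 0.73 for Fabp4 and Lpl, -0.14 to 0.46 for Fabp4 and Vldlr, and -0.23 to 0.56 for Lpl and Vldlr. With the vessel markers it ranged from -0.60 to 0.95 for Fabp3, -0.97 to 0.27 for Fabp4 and -0.10 to 0.20 for Vldlr. The SD of Vldlr was 0.29 without centring and 0.29 with equal totals, where those of Fabp3 and Fabp4 were 0.32 and 0.15, and that of Cd36 was 0.32 with quantile normalization. With 1 array left out the SD ranged from 0.25 to 0.60 for Cd36 and from 0.20 to 0.45 for Fabp4. Mean levels moved by more than their SD with the pseudocount for Lpl (2.44) and Vldlr (1.71). Adding 0.0020 raises array medians of 0.0065 to 0.0115 by a larger share than these brighter probes, so their centred levels fall by construction. With no filter, where the array median is lower by construction, mean levels moved to 0.68 for Fabp3, 2.57 for Fabp4, 3.10 for Lpl and 2.37 for Vldlr. The cause of the other changes was not tested.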
